A study of Macaca mulatta with 8 samples.

Results

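In mature eggs of the rhesus macaque (Macaca mulatta), arrested at metaphase II, 5 genes were followed: the imprinted genes H19, PLAGL1, DLK1 and MEST, and CTCFL, the paralog of the insulator protein CTCF. Every probe set whose only gene symbol in the platform annotation is one of these 5 was taken, which gave 7 of 52865 probe sets, or 5 of 12993 named genes. H19 has 3 of them and each other gene has 1. The genes were selected on their measured difference between maturation in culture and maturation in the animal. That difference is therefore a description here. Where a member's place in the fit over all probe sets is given, it is not evidence for the difference.

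One group of 4 arrays held oocytes matured in vivo and the other held 4 arrays of oocytes matured in vitro. Each array carried twice-amplified RNA from a pool of 4 oocytes, measured in one colour on an Affymetrix macaque array. According to the labels the 4 arrays are biological replicates, but no donors, hormone treatment, culture conditions or removal of cumulus cells are named there, so any p-value here measures the spread between these pools. Signals of other cells carried into a pool cannot be told apart from RNA of the oocytes themselves. All 19 listed oocyte markers found on the array, among them ZP3, BMP15 and MOS, were above background on at least 1 array, and 17 were above it on all 8. As background, each array's 95th percentile over 59 controls for absent transcripts was used, 15.7 to 27.0 in signal. From 49.9% to 60.9% of an array's probe sets exceeded it. Precision is limited by having 4 arrays a group.

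Imprinted genes are read from one parental chromosome only, because methylation marks set in the egg or the sperm tell the copies apart. H19 is a noncoding RNA made from the maternal copy of a domain in which CTCF binding keeps the neighbouring growth factor gene IGF2 silent on that chromosome. PLAGL1, a zinc finger transcription factor, DLK1, a membrane ligand related to those of the Notch receptors, and MEST, which encodes a member of the alpha/beta hydrolase family, are made from the paternal copy in most tissues. CTCFL shares the zinc finger domain of CTCF and is known mainly from male germ cells. A mature egg holds a maternal genome only. The array measures the level of each transcript in the pool and not which parental copy it came from.

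The signals below are MAS5 intensities on a linear scale. A probe set name ending in s_at means, in the maker's naming, that its probes can match more than 1 transcript, and this applies to both of the brighter H19 probe sets. Levels are compared only within a probe set, since different probe sets bind with different strength.

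H19 was higher in vitro at each of its probe sets. At the probe set MmuAffx.23.13.S1_s_at the in vivo arrays read 2144, 3049, 2289 and 2314, and the in vitro arrays read 10379, 17036, 8352 and 8688, in the order of the replicate numbers. Every in vitro array lay far above every in vivo array, and in vitro replicate 2 was the highest. The log2 difference, in vitro minus in vivo, was 2.13 ± 0.22 (SE), a 4.38-fold higher level on the scale of log2(signal + 8.2). At MmugDNA.16224.1.S1_s_at the in vivo arrays read 195, 292, 424 and 260 and the in vitro arrays 1064, 1678, 953 and 1044. Here too in vitro replicate 2 was the highest, the groups lay apart, and the in vitro level was 4.01-fold higher (SE 0.25 on the log2 scale). The third H19 probe set, the only one with the ending a_at, was dim, with 5.2, 42.1, 23.0 and 39.6 in vivo and 44.4, 64.6, 48.9 and 87.9 in vitro. It exceeded background on 2 of the in vivo arrays and on all 4 in vitro arrays, and its lowest in vitro signal stood just above its highest in vivo signal. The log2 difference there was 1.10 ± 0.43, or 0.68 without in vivo replicate 1, the lowest array.

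PLAGL1 was read by 1 dim probe set, MmuSTS.1142.1.S1_at. Its signals were 28.4, 18.2, 14.4 and 16.7 in vivo and 78.4, 97.0, 60.1 and 127.5 in vitro. The in vivo arrays lay at the level of the background, which replicates 1 and 2 exceeded and replicates 3 and 4 did not, while all 4 in vitro arrays were clearly above it. The log2 difference was 1.82 ± 0.33. The ratio of the group means was 4.67, against 3.53-fold on the log2 scale with its pseudocount, which pulls dim signals together.

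CTCFL, read by MmugDNA.10453.1.S1_at, had the largest difference of the 5 genes on the log2 scale. Its in vivo signals were 26.7, 1.8, 80.3 and 32.3, and its in vitro signals were 249.5, 274.9, 195.7 and 321.0. In vivo replicate 2 was below background and the other three exceeded it, replicate 3 by the widest margin. The in vitro arrays lay close together at 260 ± 52.2 (SD, n = 4), all above the highest in vivo array. The log2 difference was 2.98 ± 0.49, and it became 2.40 with in vivo replicate 2 left out and 3.45 with replicate 3 left out.

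MEST was bright in every pool and differed least. MmugDNA.41111.1.S1_at read 3736, 3805, 2929 and 3143 in vivo and 4917, 4834, 4776 and 4658 in vitro. The groups did not overlap, and the in vitro arrays were within a few percent of each other. The means were 3403 ± 434 and 4796 ± 109 (SD, n = 4 each), a log2 difference of 0.50 ± 0.15, which did not reach the adjusted threshold in the fit over all probe sets.

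DLK1 ran the other way. Its probe set MmugDNA.25115.1.S1_at read 7019, 780.4, 3211 and 960.8 in vivo and 361.7, 779.3, 457.9 and 397.6 in vitro. In vivo replicates 1 and 3 were high, and in vivo replicates 2 and 4 lay near the in vitro arrays. The groups only just failed to overlap, since in vivo replicate 2 exceeded in vitro replicate 2 by about 1 signal unit. The log2 difference was -2.07 ± 0.53, and -1.48 without in vivo replicate 1.

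**Figure D1:**
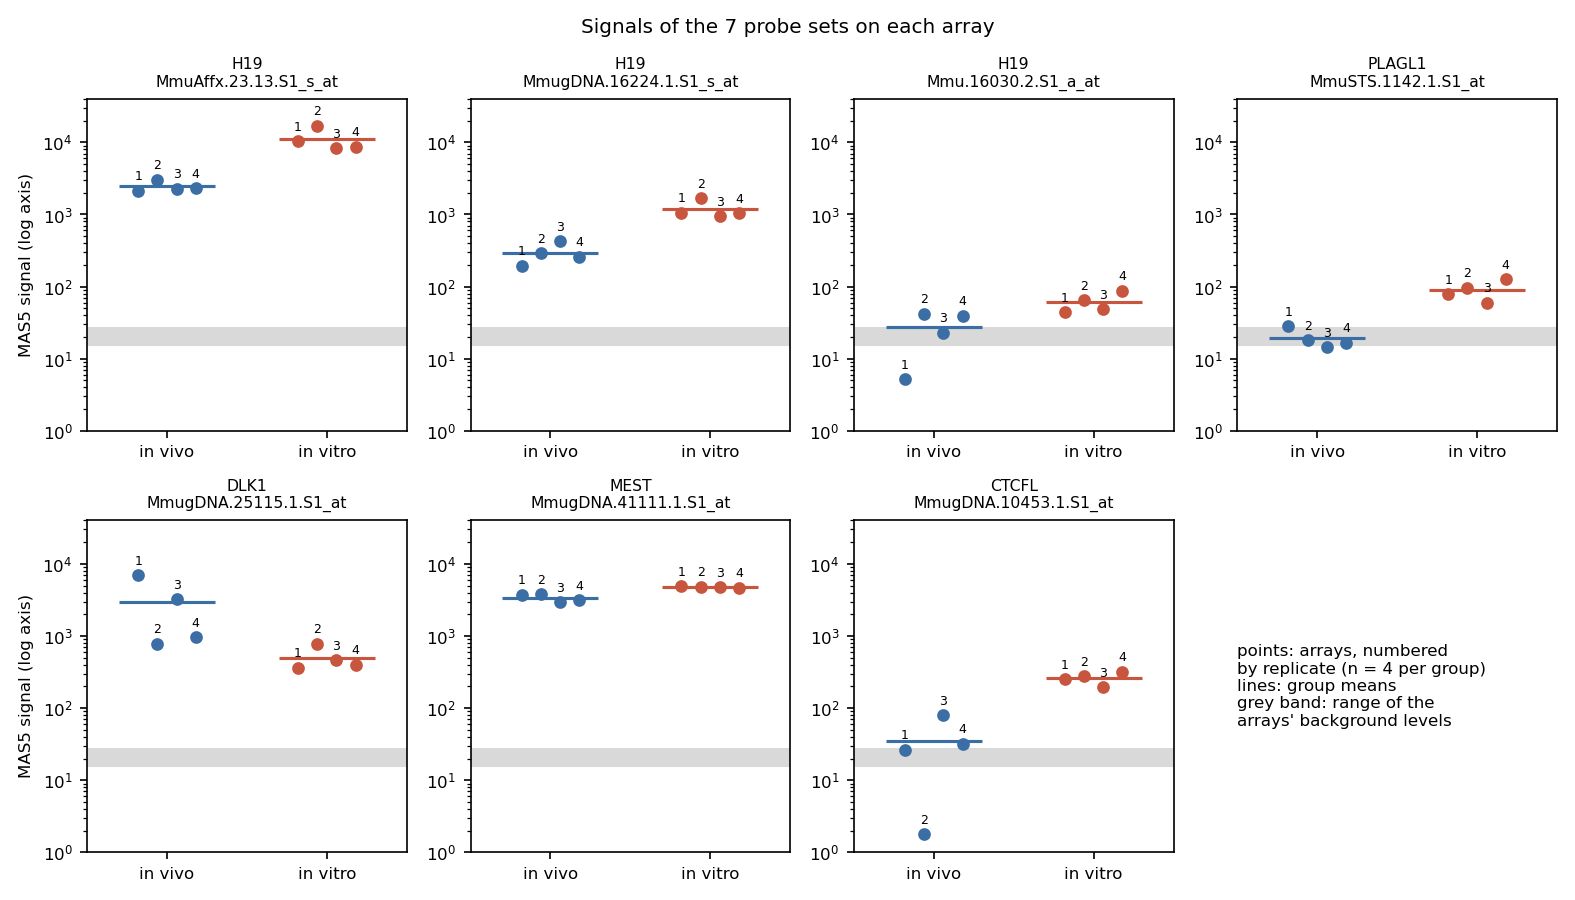
MAS5 signal (log axis) of the 7 probe sets on each array, with in vivo arrays on the left and in vitro arrays on the right of each panel; points carry the replicate number, lines are group means (n = 4) and the grey band spans the background levels of the arrays. H19, PLAGL1, MEST and CTCFL are higher in vitro, and the DLK1 signals of in vivo replicates 1 and 3 stand above those of the other 6 arrays.

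In the fit over all 26383 tested probe sets, 4 of the 7 passed a limma adjusted p of 0.05: the 2 brighter H19 probe sets, PLAGL1 and CTCFL, all higher in vitro. Of all tested probe sets 0.144% passed and 0.102% passed with a higher level in vitro. All 7 had groups that did not overlap, as had 6.28% of tested probe sets. Since the members were chosen by this contrast, nothing is read from these counts. The dim H19 probe set, DLK1 and MEST did not pass. All 7 lay above the filter on the mean over all 8 arrays. The dim ones, PLAGL1, CTCFL and the dim H19 probe set, owe this largely to their in vitro signals.

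With each array left out in turn, the log2 difference of the brightest H19 probe set stayed between 1.90 and 2.25, that of PLAGL1 between 1.65 and 1.98, and that of MEST between 0.43 and 0.56. The range was -2.53 to -1.48 for DLK1 and 2.40 to 3.45 for CTCFL. PLAGL1 passed the adjusted threshold only without in vivo replicate 1 or 4, and CTCFL did not pass with any 1 in vitro array left out. Because the members were selected on this difference, passing with an array left out is no sign of stability.

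**Figure D2:**
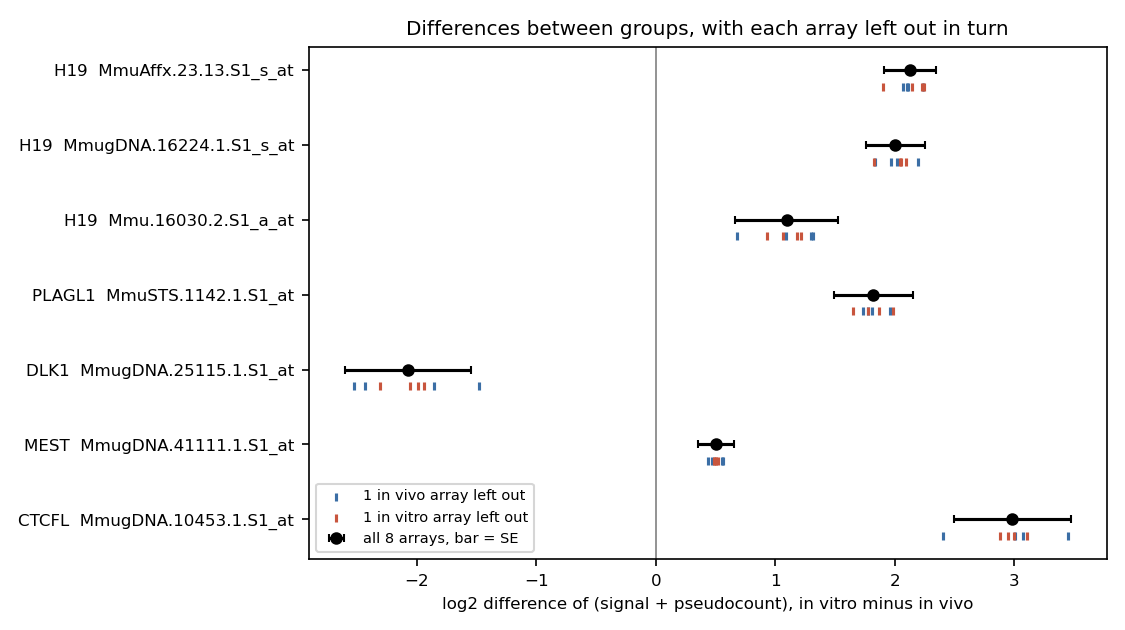
Log2 difference (in vitro minus in vivo) of the 7 probe sets with all 8 arrays (black points, bars are the standard error) and with an in vivo array (blue ticks) or an in vitro array (red ticks) left out. Only DLK1 lies below 0, and its ticks range from -2.53 to -1.48.

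The spread between pools of one group was not used to choose the genes. In vivo, the SD of log2 values was 1.49 for DLK1 and 1.30 for CTCFL, at the 99.4th and 98.5th percentile of all tested probe sets, whose median SD was 0.43. In vitro their SDs were 0.49 and 0.29, against a median of 0.32. CTCFL in vivo read 1.8 to 80.3, around background, so its SD there cannot be told apart from the noise of dim signals. H19 at its brightest probe set went the other way from DLK1 and CTCFL, with 0.22 in vivo and 0.47 in vitro. Its other probe sets did not share this, with 0.45 in vivo and 0.36 in vitro at MmugDNA.16224.1.S1_s_at and 0.88 and 0.39 at the dim one. MEST was tight in both groups, with 0.19 in vivo and 0.03 in vitro, the latter at the 0.197th percentile. The mean absolute deviation from the group median was larger in vivo for DLK1 by 0.90 and for MEST by 0.13. For each of these the exact two-sided permutation p was 0.0286 over 70 assignments of the 8 arrays, the smallest they can give, and 0.0714 after Benjamini-Hochberg adjustment over 5 genes. For H19, PLAGL1 and CTCFL the exact permutation p was 0.429, 0.40 and 0.286. PLAGL1 and CTCFL lay near background in vivo, which limits what their tests can show about the pools. No gene thus passed the adjusted threshold for unequal spread, which with 5 genes at 4 arrays a group needs at least 3 of them at the smallest p.

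The high DLK1 arrays were also the arrays with the most signal at the 5' end of the control transcript EEF1A1. The ratio of its 5' to its 3' control probe set was 0.370 and 0.368 on in vivo replicates 1 and 3, 0.130 and 0.0779 on in vivo replicates 2 and 4, and 0.204 to 0.279 in vitro. The in vitro arrays thus lay between the in vivo pairs in this ratio, while their DLK1 signals lay at or below those of in vivo replicates 2 and 4. Over the 8 arrays, the deviations of DLK1 from its group means correlated with those of the log2 ratio at r = 0.79, given as a description of arrays that differ in many transcripts at once. With the ratio as a covariate, a setting added after seeing the data, the log2 difference of DLK1 was -2.42. For a second control transcript, ACTB, the 5' to 3' ratio was 0.0133 and 0.0195 on in vivo replicates 1 and 3. It was 0.00667 and 0.00928 on in vivo replicates 2 and 4. In vitro the ACTB ratio ran from 0.00929 to 0.0196, so low DLK1 arrays reached the ratios of in vivo replicates 1 and 3. The part of RNA quality or amplification in the DLK1 signals was not tested further. The level of the bacterial hybridisation controls, relative to its geometric mean over the arrays, was 0.744 and 0.710 on in vivo replicates 1 and 3, 1.10 and 1.89 on in vivo replicates 2 and 4, and 0.743 to 1.12 in vitro. In vitro replicate 4 had the 0.743, close to in vivo replicate 1, with a DLK1 signal of 397.6.

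**Figure D3:**
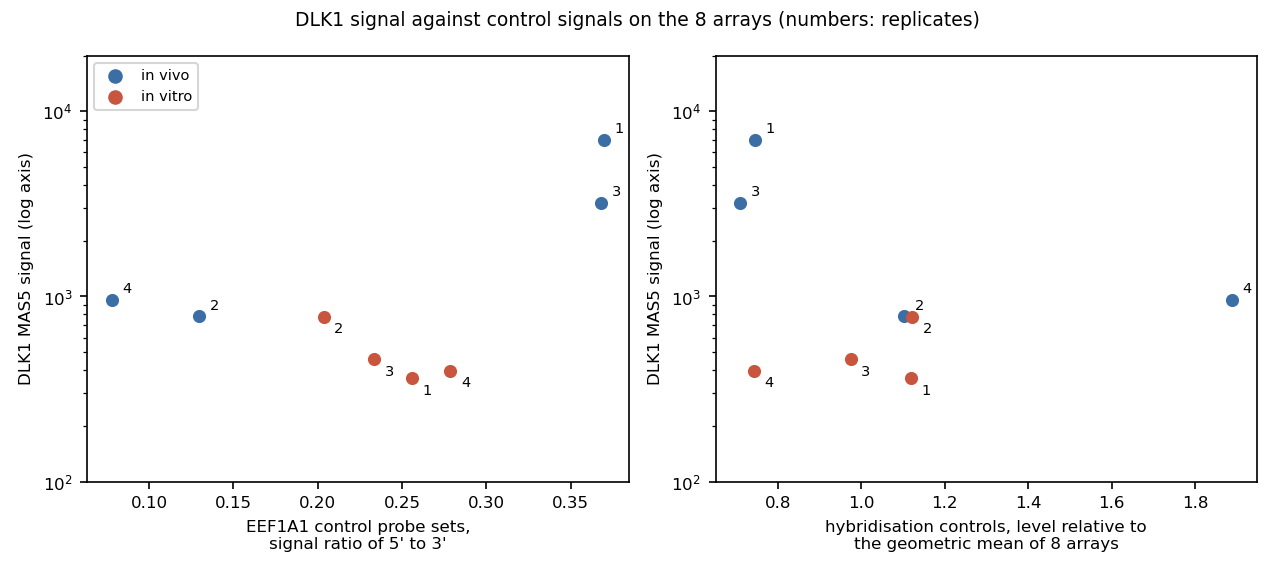
DLK1 signal (log axis) on each array against the 5' to 3' signal ratio of the EEF1A1 control probe sets (left) and against the level of the hybridisation controls (right), with points numbered by replicate. In vivo replicates 1 and 3 hold the highest DLK1 signals (7019 and 3211) and the highest EEF1A1 ratios (0.370 and 0.368).

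Genes of other cell types were measured beside the members, since DLK1 is also made by stromal and endocrine cells. The summed signal of 17 markers of theca, stroma and endothelium was 3192 to 4200 in vivo and 3544 to 4479 in vitro, so the groups overlapped. In vivo replicate 1, with the highest DLK1 signal, had the highest in vivo sum, and in vivo replicate 3, second in DLK1, had the lowest. Bright genes dominate such a sum, and FBN1 alone read 1828, 1680, 1033 and 1718 in vivo. The low place of in vivo replicate 3 leans on that gene, so nothing is read from the order of the sums. CYP17A1 and KDR were at or below background on all 8 arrays. Of the 17 markers 11 were tested and 0 passed in limma, while 4 had an unadjusted p under 0.05, 2 higher and 2 lower, and the list median was 0.35. Among all 9578 tested genes 11.8% had an unadjusted p under 0.05 and 0.251% passed, the shares to set beside this and later counts. The collagen gene COL6A1 (1.77) and the smooth muscle gene TAGLN at its brightest probe set (1.82) were higher on every in vitro array. A second TAGLN probe set had 0.75, with overlapping groups. The endothelial receptor gene TEK had -0.76 at its brightest probe set and 0.10 at a second one. DCN, a matrix proteoglycan gene of stromal cells, had -1.85 at its brightest probe set, with 115, 48.2, 145 and 34.3 in vivo, high on the same arrays as DLK1. Its other 3 tested probe sets had 0.75, 0.55 and -0.11.

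Of 26 granulosa and cumulus markers on the array 24 were tested, 2 passed, both higher, and 14 of the 24 were below 0, with a median of -0.10. Their summed signal was 27669 to 30009.8 in vivo and 25720 to 34908 in vitro, highest on in vitro replicate 2, the array on which H19 was also highest. SERPINE2 alone read 15867 on that array, against 10342 to 12015 on the other in vitro arrays. The top place of in vitro replicate 2 leans on that gene, so nothing is read from it. INHBB was at or below background on all 8 arrays. In vivo, VIM read 4642.5, 1757, 3802 and 1240, FST 1122, 540.5, 1107 and 436.5, and NR5A2 242.4, 74.8, 258.0 and 46.4. These were high on in vivo replicates 1 and 3, as DLK1 was. Other markers of the list did not share this order, such as TIMP1 at 4286, 4086, 2720 and 2538 and HAS2 at 114.2, 199.8, 111.3 and 117.4. INHBA, an inhibin and activin subunit gene, read 252, 156.7, 176.3 and 75.9 in vivo and 2529, 1366, 743.9 and 1295 in vitro, a log2 difference of 3.08 (limma adjusted p = 0.00226). STAR, which carries cholesterol into mitochondria, was higher by 2.60 (limma adjusted p = 0.00861). Both were higher on every in vitro array and highest on in vitro replicate 1. The steroid enzyme gene HSD3B2 had 2.28 and was highest on in vitro replicate 2, with 465.4 against 132.6 to 196.0 on the other in vitro arrays. The matrix gene EFEMP1 had 1.96, CITED2 had -1.38 and ITIH2, a hyaluronan-binding protein gene of the cumulus matrix, had -1.20, and none of these 4 passed. The sum of 14 blood and immune markers was 366 to 517 in vivo and 248 to 286 in vitro, without overlap and highest on in vivo replicate 1. Of these markers 0 were above background on all 8 arrays, and S100A9 was at or below it on all 8. The sum thus rests on dim signals, and nothing is read from it. Of the 14 blood and immune markers, 7 were tested, 0 passed in limma and 0 had an unadjusted p under 0.05. Their median was -0.50, with 2 above 0 and 5 below. PF4 had -0.85, CD68 -1.02, HBB -1.02 and S100A8 -0.50, while ALAS2 had 0.21 and CD14 0.15. Of 19 oocyte markers tested 0 passed in limma, while 3 had an unadjusted p under 0.05, all lower: NLRP5 at -1.03, the germ cell regulator gene SOHLH1 and the homeobox gene LHX8 at -0.62. NPM2, a histone chaperone gene of the egg, had -0.38, and the list median was -0.09. The part of such cells in the levels of the members was not tested.

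Among other genes listed as imprinted none passed the test. Their imprinting and parental copy are those of the list and were not measured in these oocytes. Of 63 listed imprinted genes 44 were on the array and 33 were tested, each at its brightest probe set, the one with the highest mean of log2(signal + 8.2). Of these, H19 and PLAGL1 passed. Without the members, 0 of 29 passed in limma, and 1 of 29 had an unadjusted p under 0.05. Among all 9578 tested genes, 0.251% passed, 0.167% passed with a higher level, and 11.8% had an unadjusted p under 0.05. The median log2 difference of the 29 was 0.12, beside -0.02 over all tested genes, and 18 were above 0 and 11 below. By parental copy, the 9 other paternally expressed genes had a median of 0.01 and the 20 other maternally expressed ones a median of 0.13.

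ZNF331, a paternally expressed zinc finger gene, came closest of these 29 when each was taken at its brightest probe set. Its in vivo mean was 193 ± 51.7 and its in vitro mean 357 ± 107 (SD, n = 4 each), a log2 difference of 0.85 ± 0.25 with a limma adjusted p of 0.276. Its groups overlapped, since in vivo replicate 2 at 267.5 exceeded in vitro replicate 2 at 247.5. Of the maternally expressed genes, RB1, the retinoblastoma cell cycle regulator, had 0.41 at its brightest probe set and 0.39 and -0.45 at the others. ATP10A, which encodes a phospholipid transporter, had 0.56 at its brightest probe set on the log2 scale. Its second tested probe set, which is the brighter one by mean linear signal, read 7.7, 3.1, 52.3 and 3.8 in vivo and 46.2, 64.5, 73.5 and 97.9 in vitro, a log2 difference of 2.01 ± 0.51 that did not pass (limma adjusted p = 0.198). The organic cation transporter gene SLC22A2 had -0.63 and the Wilms tumour gene WT1 had 0.53. Several imprinted genes were well above background and differed by less than the spread between arrays. SNRPN, a splicing protein gene, was at 2194 ± 464 in vivo and 2083 ± 212 in vitro. NDN, a growth suppressor gene, was at 983 ± 227 and 910 ± 234, and IGF2R, the receptor that clears IGF2, at 1084 ± 171 and 1209 ± 208. The ubiquitin ligase gene UBE3A was at 1029 ± 291 and 1069 ± 58.8, and the small GTPase gene DIRAS3 at 393 ± 44.7 and 403 ± 108. GRB10, an adaptor of growth factor receptors, had 0.02 at its brightest probe set and -0.98 at another. NAA60 had 0.13 at its brightest probe set and -0.59 at another. These further probe sets of GRB10 and NAA60, and that of ATP10A, had a limma unadjusted p under 0.05 and did not pass. The count of 29 genes leaves them out.

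**Figure D4:**
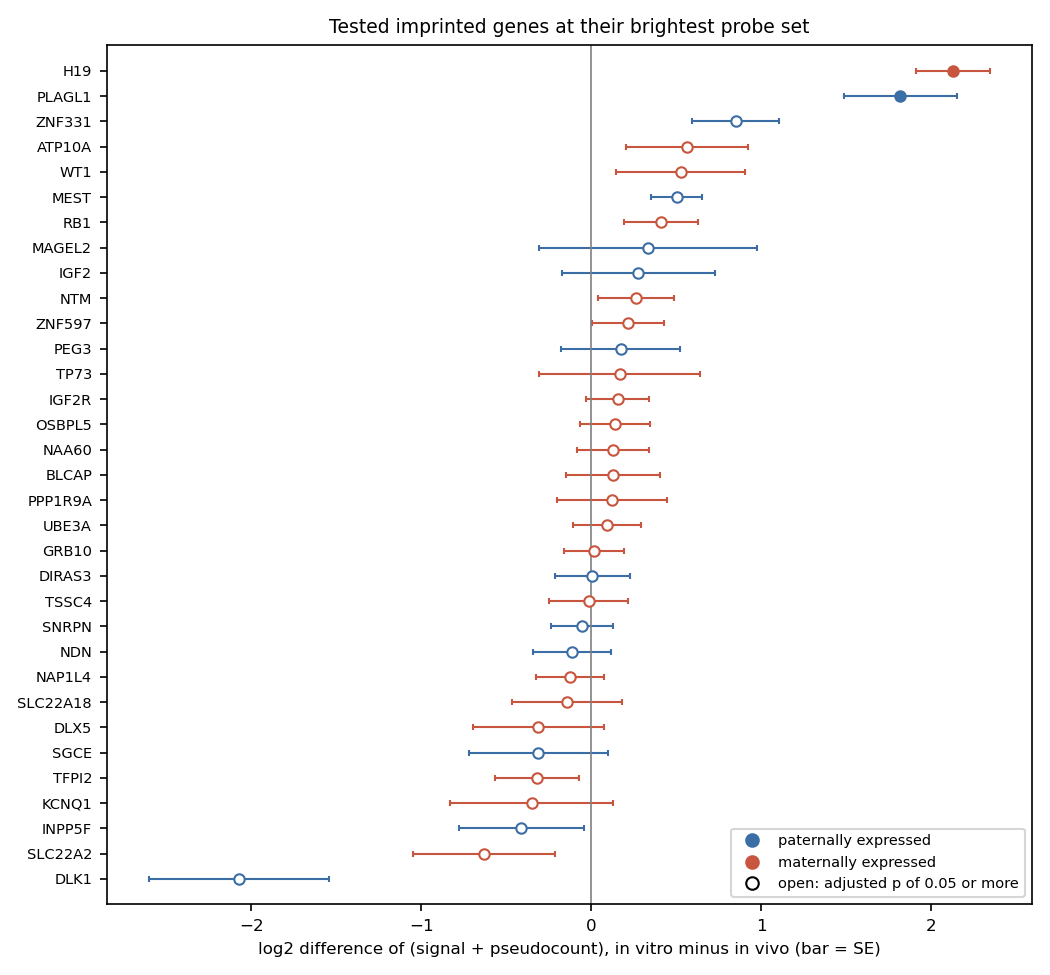
Log2 difference (in vitro minus in vivo, bars are the standard error) of 33 tested genes listed as imprinted, at their brightest probe set. Colours give the parental copy under which each gene was listed, and filled points passed a limma adjusted p of 0.05. H19 and PLAGL1 stand at the upper end with 2.13 and 1.82, DLK1 stands at the lower end with -2.07, and the other genes lie between -0.63 and 0.85.

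Of the 11 listed imprinted genes on the array that were too dim to be tested, among them PHLDA2, ASCL2 and COPG2, no probe set exceeded background on more than 4 arrays. MEG3, CDKN1C, PEG10 and NNAT were not analysed here. In the order of named genes on the T2T-MMU8v2.0 assembly, the 5 neighbours on each side of every member were also taken, 50 in all. Of these 30 were on the array, 16 were tested, and 0 passed in limma, while 2, LTV1 and RBM38, had an unadjusted p under 0.05. IGF2, the imprinted partner of H19, read 66.1, 179.6, 62.3 and 78.2 in vivo and 46.6, 114.8, 285.2 and 84.4 in vitro, with overlapping groups and a log2 difference of 0.28 ± 0.45. MRPL23, a mitochondrial ribosome gene next to H19, had -0.42 ± 0.30. Beside PLAGL1, the ribosome assembly gene LTV1 was higher in vitro on all 4 arrays at 4214 ± 712 in vivo and 5847 ± 910 in vitro, with a limma adjusted p of 0.371, and the splicing factor gene SF3B5 had 0.15. Beside MEST, COPG2 was too dim to be tested, CEP41 had -0.10 and CPA1 had -0.31. Beside DLK1, BEGAIN had 0.36 and WARS1, a tRNA synthetase gene, had -0.50. Beside CTCFL, the RNA-binding protein gene RBM38 had 0.56 (limma adjusted p = 0.454) and the nuclear transport gene RAE1 had -0.22, while the meiotic recombination gene SPO11 was too dim to be tested.

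Genes of insulin-like growth factor signalling, in which H19 and IGF2 take part, and proteins that bind H19 formed a list of 28, of which 19 were tested and 0 passed in limma. Of these, 4 had an unadjusted p under 0.05, 3 higher and 1 lower. The list median was 0.04. The smallest p-values were those of 3 binding proteins of the growth factors and of IRS2. Mean signals in vivo and in vitro were 17.3 ± 4.38 and 63.4 ± 10.7 for IGFBP6, 115 ± 46.7 and 351 ± 201 for IGFBP4, and 1848 ± 417 and 2465 ± 455 for IGFBP3 (SD, n = 4 each). Their limma adjusted p-values were 0.111, 0.151 and 0.486, so none passed. Other binding protein genes of the list lay below 0, IGFBP1 at -1.05, IGFBP2 at -0.81 and IGFBP7 at -0.17, and did not pass either. IGFBP7 read 5235, 1117, 2737 and 1104 in vivo, high on the same 2 arrays as DLK1. IRS2, an adaptor of the insulin and growth factor receptors, read 419, 204, 406 and 213 in vivo and 123 to 177 in vitro. It was higher on in vivo replicates 1 and 3, as DLK1 was, and had a log2 difference of -0.99 ± 0.27 (limma adjusted p = 0.238). A second IRS2 probe set had -0.96.

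Of 32 genes of the Notch pathway, which DLK1 can bind without activating, 22 were tested and 0 passed, with 4 at an unadjusted p under 0.05, 2 higher and 2 lower, and a median of -0.10. PSEN2, a subunit of the protease that cleaves Notch, had means of 1826 ± 45.5 in vivo and 1236 ± 198 in vitro, and its groups did not overlap (limma adjusted p = 0.259). A second PSEN2 probe set had -0.29, again without overlap. The receptor gene NOTCH2 read 583, 296, 538 and 300 in vivo, in the order of DLK1, and 270 ± 29.4 in vitro (-0.59, limma adjusted p = 0.437). The target gene HEYL had 1.76 and the coactivator gene MAML3 had 0.62, and neither passed (limma adjusted p = 0.350 for HEYL).

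Of 21 relatives and reported targets of PLAGL1, 13 were tested and 0 passed in limma, while 2 had an unadjusted p under 0.05, both lower, and the median was 0.03. PPARG, a nuclear receptor of lipid metabolism, was at 385 ± 224 in vivo and 131 ± 49.3 in vitro (-1.36, limma adjusted p = 0.251). It read 606.3, 210.4, 547.7 and 174.4 in vivo, high on the same arrays as DLK1, and its groups overlapped. DCN had -1.85. The paralog PLAG1 was at 333 ± 103 and 235 ± 59.2 (-0.48). FN1, the fibronectin gene, had 0.63. Of 27 hydrolases related to MEST and genes near it, 14 were tested and 0 passed in limma, 0 had an unadjusted p under 0.05, and the median was -0.13. The members with the smallest p were ABHD5, a lipase activator, at -0.43, ABHD10 at -0.41, the Wnt receptor gene LRP6 at 0.32 and ABHD17B at -0.28.

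CTCFL was set beside 50 genes that set, insulate or maintain imprints. Of these 33 were tested and 0 passed in limma, while 2 had an unadjusted p under 0.05, both lower. Their median was 0.07, with 25 above 0 and 8 below. CTCF itself was not analysed here. The maternal effect gene NLRP5 had means of 2423 ± 1064 in vivo and 1128 ± 225 in vitro, its groups did not overlap and it did not pass (limma adjusted p = 0.204). The cohesin subunit gene STAG2 had -0.78 at its brightest probe set, with 235, 100, 202 and 105 in vivo, the order seen for DLK1, and -0.52, 0.31 and -0.66 at its other tested probe sets. The histone methyltransferase gene NSD1 had -0.58 at one probe set and 0.88 at another. The DNA methyltransferase genes DNMT3B and DNMT3A had 0.38 and 0.21, and DNMT1 and DNMT3L were too dim to be tested. UHRF1, which guides DNMT1 to copied DNA, was at 5282 ± 1763 and 5156 ± 754. TRIM28, the corepressor that holds imprints through early divisions, had 0.26 ± 0.21. The cohesin genes RAD21 and SMC3 had 0.07 and -0.06.

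**Figure D5:**
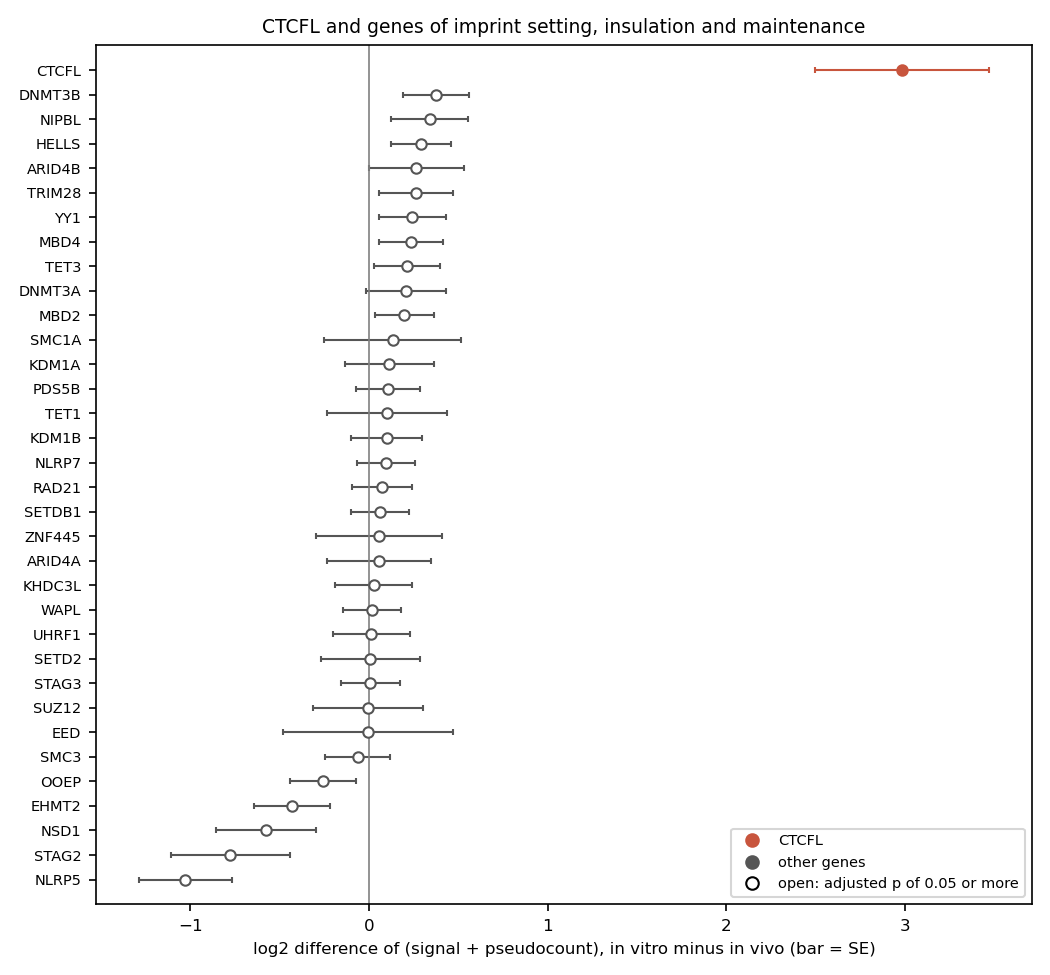
Log2 difference (in vitro minus in vivo, bars are the standard error) of CTCFL and of 33 tested genes of imprint setting, insulation and maintenance; open points did not pass a limma adjusted p of 0.05. CTCFL stands at 2.98 and the 33 others lie between -1.03 and 0.38.

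Of 25 partners and reported targets of CTCFL, most of them germ-line genes, 13 were on the array, 8 were tested, 0 passed in limma and 0 had an unadjusted p under 0.05. Their median was -0.25 and 7 of the 8 were below 0. TERT, the telomerase gene, had -0.46, the transcription factor gene SP1 -0.36, the arginine methyltransferase gene PRMT7 -0.42 and the adhesion gene FERMT1 0.77.

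Around the group means, the members differed in how they varied. For both brighter H19 probe sets the deviations from the group means correlated at r = 0.63 over the 8 arrays, with r = 0.98 among the in vitro arrays and 0.22 among the in vivo arrays. The dim H19 probe set correlated with them at 0.28 and 0.41. Between genes, r ranged from -0.82 for MEST with CTCFL to 0.50 for DLK1 with CTCFL, and the dim H19 probe set had -0.81 with DLK1. H19 at its brightest probe set and PLAGL1, both higher in vitro, had r = 0.08 around their group means. These values rest on 8 arrays with group means removed and are given without a test.

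The genes whose pattern over the 8 arrays was most like that of each member were taken from 9577 others, by Pearson's r of log2 values. Such an r holds the difference between groups as well as the deviations within them, and the second is given beside it. For H19 they were the kinase gene RPS6KA5 (r = 0.98, within groups 0.81), MCCC1, LARGE2, NFKBIB (r = 0.96, within groups 0.85) and MPPE1. MCCC1 encodes a subunit of a leucine-degrading carboxylase and NFKBIB an inhibitor of NF-kappaB. LARGE2 and MPPE1 had only 0.50 and 0.34 within groups. Both passed, higher in vitro, and read 10.7 to 21.1 and 2.9 to 10.8 in vivo, near or below background. RPS6KA5 was at 1292 ± 171 in vivo and 2377 ± 354 in vitro. For PLAGL1 they were MLEC, HMGN4, LTA4H, LARGE2 and INHBA, with r from 0.95 to 0.97. HMGN4, a nucleosome-binding protein gene, had the highest of these 5 within groups, at 0.89, and LARGE2 the lowest, at 0.41. For MEST they were the amino acid transporter gene SLC1A5 (r = 0.99, within groups 0.93), DUSP1, OSBPL3, MITD1 and MLF1. SLC1A5 was at 1671 ± 294 in vivo and 3026 ± 173 in vitro, which did not pass (limma adjusted p = 0.0588). DUSP1 passed, higher in vitro (limma adjusted p = 0.00813). For CTCFL they were the antioxidant gene SRXN1 (r = 0.96, within groups 0.83), the histone demethylase gene KDM3A, GMPPB, RALGAPA1 and SREK1.

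Other genes followed DLK1 closely within the groups. PROS1, which encodes the anticoagulant protein S, had r = 0.98 over all arrays and 0.97 within groups, with 409.8, 77.5, 311.4 and 103.7 in vivo and 68.8 ± 14.8 in vitro. TFPI, the inhibitor of tissue factor, read 291, 55.9, 199 and 68.7 in vivo and 39.1 ± 11.8 in vitro, with 0.94 within groups. The zinc finger gene ZNF521, the methyltransferase gene PRMT2 and NOTCH2 had 0.95, 0.94 and 0.94 within groups. All 5 were high on in vivo replicates 1 and 3 and low on in vivo replicates 2 and 4, and none passed the adjusted threshold between groups (limma adjusted p from 0.230 to 0.437).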

How the data were processed

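Per the labels' protocols, RNA of 4-oocyte pools went through a double amplification to biotin-labelled cRNA. The deposited intensity values are MAS5 signals, per the submitters' processing notes, whose version is not given in the sources used here. Dim MAS5 signals vary strongly, and amplification from the 3' end weakens probe sets far from it. Control probe sets (99) were left out of tests. Of 52766 others, 24956 had 1 gene symbol, 361 several and 27449 none, and no gene was named from several. Entrez identifiers of 24616 were found in the RefSeq table of T2T-MMU8v2.0.

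Values were log2(signal + 8.2), the 25th percentile of signals as pseudocount, and the upper 50% of probe sets by mean over all arrays were tested with limma 3.58.1 in R 4.3.3 (lmFit, eBayes with intensity trend, Benjamini-Hochberg at 0.05), a fit checked on simulated data. Spread was compared by exact permutation. Named genes are all member probe sets, the 5 most correlated genes per member, and per list those that passed plus up to 4 of smallest p. Further probe sets and genes, such as those named as below background, were chosen after their values were seen. Members and lists were chosen with earlier results of these data known. The main fit did not pair arrays by replicate number, as the labels name no donors. Same-numbered deviations correlated at -0.05 to 0.02, which cannot show whether the pools were paired. Other pseudocounts (1 and the median signal), filters, scalings, variance models, a replicate block and left-out arrays were tried.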

Additional observations from a re-analysis of the deposited data

How the results depend on the processing

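Among all tested probe sets 38 passed, and 10 did so without the intensity trend, 88 with array weights, 292 with the EEF1A1 ratio as a covariate and 25 with scaling to the hybridisation controls, the last 2 chosen after seeing the data. With an array left out the count ran from 18 to 97, the highest without in vivo replicate 4. Under median centring 59.6% of calls were higher in vitro, against 71.1%, with an EEF1A1 covariate 41.8%, and without in vivo replicate 4, 45.4%, so that most calls were then lower. The 2 imprinted genes called, H19 and PLAGL1, became 1, H19 alone, with a pseudocount of 1, no filter, the upper-quarter filter, no intensity trend, the replicate block and scaling to hybridisation controls, and 1 or 2 with an array left out. With the EEF1A1 covariate DLK1 was called beside them. PLAGL1, CTCFL and the dim H19 probe set were too dim to be tested under the upper-quarter filter. With the replicate block 43 probe sets passed, and among the members the replicate block ended the call of PLAGL1 and no other. CTCFL did not pass with a pseudocount of 1 or without the trend, nor did H19 at MmugDNA.16224.1.S1_s_at without the trend. The number of member probe sets above background on all 8 arrays was 4 at each of the background levels tried. The cause of these shifts was not tested. PLAGL1, CTCFL and the dim H19 probe set lie near background in vivo, which limits how well their differences are measured.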
